A study of Canis lupus familiaris with 30 samples.

Results

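CDK4, MDM2 and 8 genes that lie near them on canine chromosome 10 were followed across 30 canine thyroid carcinomas (TC). The other 8 are PIP4K2C, B4GALNT1, OS9, AGAP2, TSPAN31, MARCHF9, CYP27B1 and METTL1. The 10 genes, of 30424 in the table, were selected on their levels in TC640 and TC22, the tumors in which most of them stand far above the other 28. All 10 passed the count filter (10 or more counts in 5 or more tumors), as did 18711 genes in all. Values of TC640 and TC22 against the other tumors are therefore a description, without a test.

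Total RNA was sequenced from primary tumors of the thyroid gland of 30 dogs, 1 library per tumor. The labels put all 30 in 1 group and give no treatment, breed, age or sequencing batch, and values within batches could therefore not be given. The study classed 25 tumors as follicular (FTC), TC640 and TC22 among them, and 5 as medullary (MTC, a carcinoma of the calcitonin-producing C cells). Each tumor is a mixture of tumor cells and stroma, and in such bulk tissue more cells of a type and more RNA per cell cannot be told apart.

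Counts on genes summed to 24554019 in TC640 and 35550383 in TC22, within a range of 12288945 to 45148677 over the tumors. A level is log2(normalized count + 1), where normalization divides a count by its library's size factor (the median ratio to the average tumor over 15611 genes). A difference is a level minus the median of the 28 tumors other than TC640 and TC22, so a difference of 2 is 4-fold. TC538, with the smallest size factor (0.279), and TC1088, which the study treats as an outlier, stand apart from the rest, and their effect is given where it matters. The summed level of 8 follicular cell markers was 18.36 in TC640 and 18.20 in TC22, against 7.94 to 22.75 (median 18.82) in the 28.

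CDK4 is a kinase that, bound to a D-type cyclin, phosphorylates the retinoblastoma protein RB and so frees E2F factors to switch on genes of DNA replication. MDM2 is a ubiquitin ligase that marks other proteins for degradation. The same genes are neighbours on a single chromosome arm in humans, where CDK4 and MDM2 are known to be gained together in liposarcoma and some other tumors. DNA copy number was not analysed here. The study estimated it from exome sequencing of tumor and matched normal DNA, and those estimates were not used.

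Of the 10 genes, 6 were at least 4-fold above the median in TC640 (TSPAN31, CDK4, MARCHF9, CYP27B1, METTL1 and MDM2), where 3.54% of all 18711 genes passed that limit. In TC22 it was 7 of 10 (OS9, AGAP2, TSPAN31, CDK4, MARCHF9, CYP27B1 and METTL1), beside 3.44% of all genes. Levels above every one of the other 28 tumors were found for 6 genes in TC640, beside 1.56% of all genes, and for 6 in TC22, beside 1.35%. None of the 10 was 4-fold lower in either tumor, a limit passed by 3.36% of all genes in TC640 and by 1.69% in TC22. These shares describe the choice of the genes and are not a result about them.

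**Figure D1:**
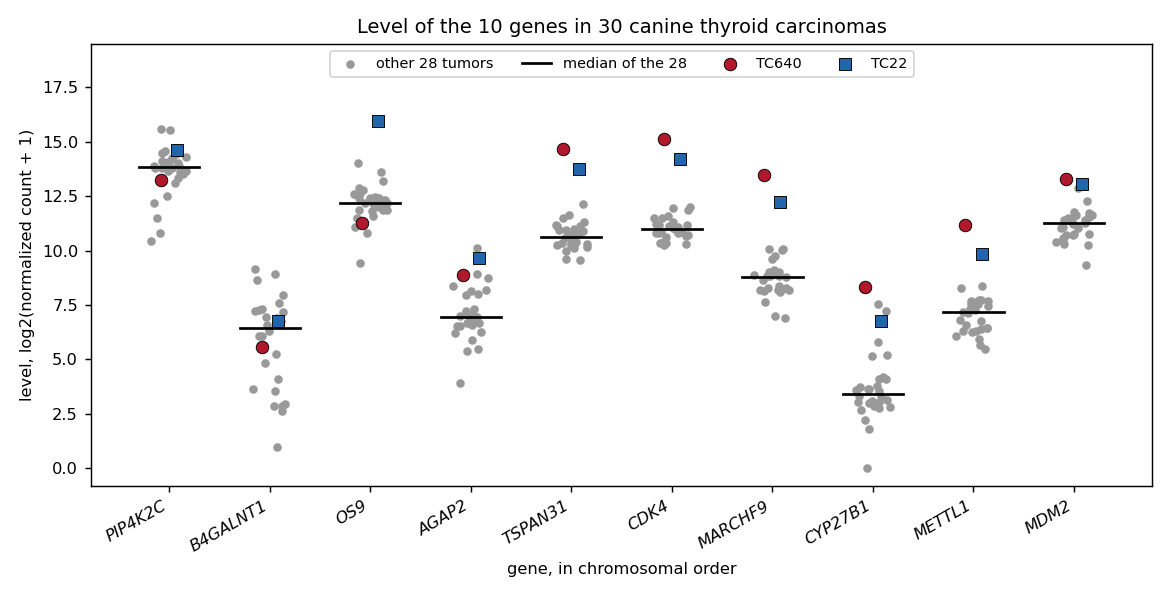
Level of each of the 10 genes, as log2(normalized count + 1), in each of 30 tumors, with genes in chromosomal order along the x axis. Grey points are the other 28 tumors and black bars their median. TC640 (circles) and TC22 (squares) lie above all grey points from TSPAN31 to MARCHF9 and for METTL1 and MDM2, and among them for PIP4K2C and B4GALNT1.

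CDK4 (ENSCAFG00000000280) had 37743 counts in TC640 and 26767 in TC22. Its level was 15.15 in TC640 and 14.20 in TC22, and ran from 10.25 to 12.02 (median 11.00) in the other 28 tumors. That is 17.7-fold above the median in TC640 and 9.18-fold in TC22, and neither overlapped the 28. CDK4 was the steadiest of the 10 genes in those 28 tumors, with an SD of 0.49 on the log2 scale.

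MDM2 (ENSCAFG00000000418) had 10368 counts in TC640 and 12119 in TC22. Its level was 13.28 in TC640 and 13.06 in TC22, and ran from 9.36 to 12.86 (median 11.25) in the 28. The fold was 4.08 in TC640, just inside the 4-fold limit, and 3.49 in TC22, just outside it. TC640 and TC22 thus held the highest MDM2 levels of the 30 tumors, with a narrower gap than for CDK4. The nearest tumor was TC538, which was 0.43 below TC640 and 0.20 below TC22 on the log2 scale. Without TC538 and TC1088 in the baseline, the MDM2 difference was 2.12 in TC640 and 1.90 in TC22.

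TSPAN31, a tetraspanin membrane protein encoded beside CDK4, had a level of 14.68 in TC640 and 13.77 in TC22, against 9.56 to 12.14 (median 10.63) in the 28. Its difference from the median, 4.04 and 3.13, was close to that of CDK4 in the same tumor, 4.15 and 3.20. How strand was handled in the counting is not stated, so reads of genes that overlap on opposite strands in this dense stretch cannot be told apart.

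MARCHF9, a membrane-bound ubiquitin ligase that directs surface proteins to lysosomes, had levels of 13.50 and 12.24, against 6.91 to 10.10 (median 8.80) in the 28. In TC640 this was 26.1-fold above the median and in TC22 10.8-fold. METTL1, the methyltransferase that modifies guanosine in transfer RNA together with WDR4, had levels of 11.19 and 9.87, against 5.48 to 8.37 (median 7.17). For both genes TC640 was the highest tumor and TC22 the second, and no other tumor overlapped them. WDR4, the partner of METTL1, encoded elsewhere in the genome, differed from its median by -0.33 in TC640 and -0.49 in TC22.

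CYP27B1, the enzyme that makes the active vitamin D hormone, had 336 counts in TC640 and 153 in TC22. Its level was 8.34 in TC640 and 6.76 in TC22, against 0.00 to 7.54 (median 3.43) in the 28, of which 1 had no count. TC22 was overlapped here. TC1744 (7.54) and TC1994 (7.21) lay above it, and CDK4 was not past the limit in either. CYP24A1, the enzyme that degrades the hormone, had a level of 5.97 in TC640 and 1.64 in TC22, against 0.00 to 8.31 (median 1.45) in the 28. CYP27A1, another vitamin D and bile acid hydroxylase, was above all 28 in both tumors, with differences of 2.28 and 2.36. The vitamin D receptor VDR differed by 1.08 and 0.44, within the range of the 28 tumors. Of 14 partners and paralogs of the 10 genes, 2 were past the 4-fold limit in TC640 (CYP24A1 and CYP27A1) and 1 in TC22 (CYP27A1).

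AGAP2, a GTPase-activating protein linked to phosphoinositide 3-kinase signalling, had levels of 8.89 in TC640 and 9.65 in TC22, against 3.94 to 10.13 (median 6.93). TC1241 was higher than both, and TC1601 (8.94) was above TC640. Its fold of 3.89 in TC640 lay just outside the limit, and with 6.57 it was inside it in TC22. With CPM in place of size factors, or without the 5 MTC in the baseline, the number of genes past the limit in TC640 was 7 rather than 6.

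OS9, a lectin of the endoplasmic reticulum that hands misfolded glycoproteins to degradation, differed most between TC640 and TC22. TC22 had 91291 counts and a level of 15.97, and TC640 had 2552 counts and a level of 11.26. The other 28 ran from 9.42 to 14.02 (median 12.19). OS9 was thus 13.7-fold above the median and the highest of 30 in TC22, while TC640 held rank 27. The study lists an MDM2-OS9 fusion in TC640, seen only with CanFam3.1, in a group of fusions it links to elevated transcripts. Whether that fusion bears on the levels given here was not tested. SEL1L, SYVN1 and ERLEC1, which work with OS9 in that degradation, differed in TC22 by -0.24, 0.32 and -0.25.

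PIP4K2C, a phosphoinositide kinase, had levels of 13.27 in TC640 and 14.63 in TC22, both inside the range of 10.44 to 15.57 of the other tumors. B4GALNT1, which makes the core of complex gangliosides, had levels of 5.56 and 6.77, again inside the range (1.00 to 9.15) and near the median of 6.44. Neither gene was at its highest in TC640 or TC22. PIP4K2C was highest in TC2011, and B4GALNT1 in TC1164.

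Among the 28 other tumors, 21 had none of the 10 genes 4-fold above the median, 6 had 1 and 1 had 2. These were B4GALNT1 in TC1164, TC1213 and TC627, AGAP2 in TC1241, CYP27B1 in TC1744 and TC1994, and both AGAP2 and CYP27B1 in TC1601. In none of them was CDK4, TSPAN31, MARCHF9, METTL1, OS9 or MDM2 past the limit. The SD over the 28 tumors ran from 0.49 for CDK4 to 2.13 for B4GALNT1, so a 4-fold difference is a different distance from the spread for each gene.

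The genes were then placed in their order on chromosome 10 of the UU_Cfam_GSD_1.0 assembly, used for order only because the counts are on CanFam3.1. Of the 10, 9 lie close together in the order PIP4K2C, B4GALNT1, OS9, AGAP2, TSPAN31, CDK4, MARCHF9, CYP27B1 and METTL1. MDM2 follows after 30 further genes with enough counts. In TC640 the change came between OS9 (difference -0.93) and TSPAN31 (4.04), with AGAP2 (1.96) between them. In TC22 it came 1 gene earlier, between B4GALNT1 (0.33) and OS9 (3.78).

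**Figure D2:**
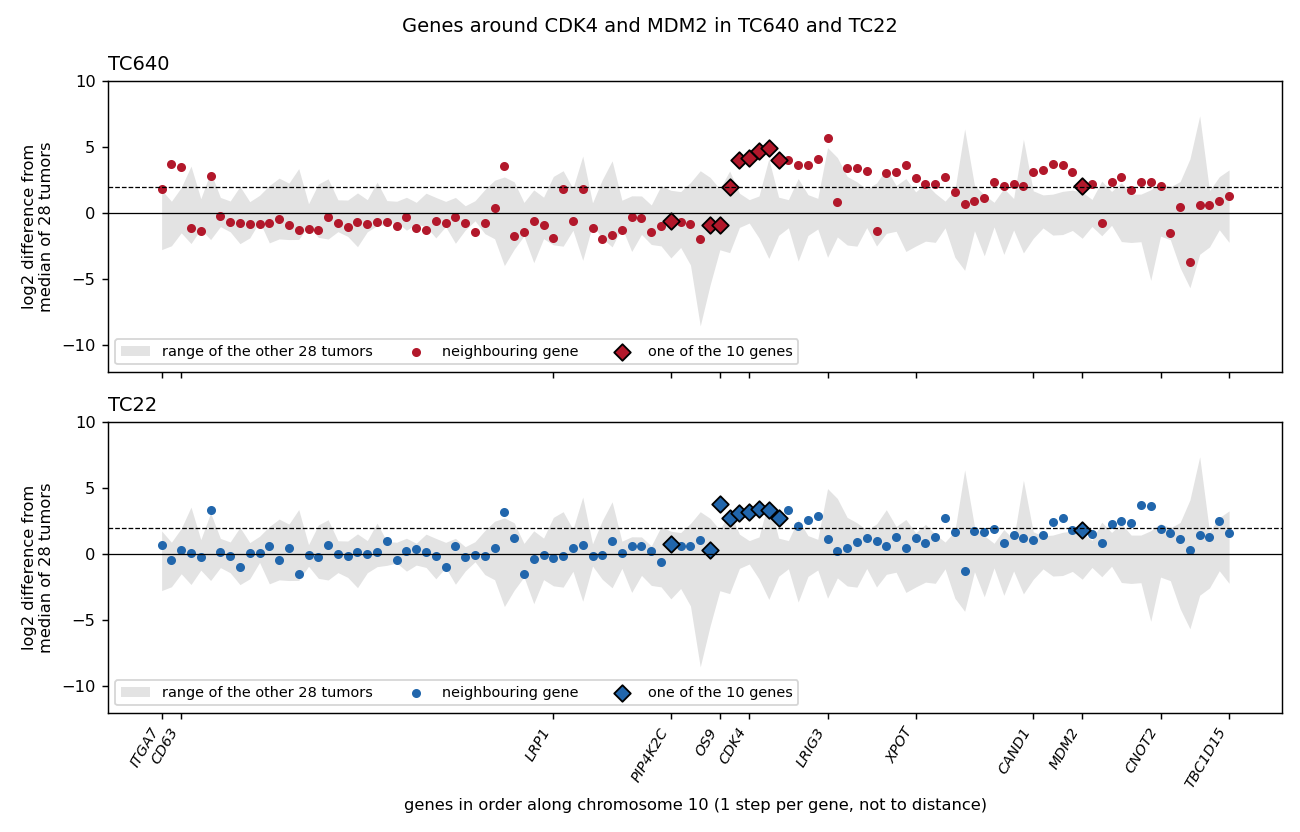
Difference of each gene from the median of the other 28 tumors (y axis, log2) for genes in chromosomal order, 1 step per gene (x axis), in TC640 (top) and TC22 (bottom). The grey band is the range of the other 28 tumors, diamonds are the 10 genes, and the dashed line is 4-fold. In TC640 most genes from TSPAN31 to CNOT2 lie above the dashed line, while in TC22 a block from OS9 to ATP23 and a second around MDM2 do.

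Between TSPAN31 and ATP23, 9 of 9 genes were at least 4-fold above the median in both tumors, with a median difference of 4.05 in TC640 and 3.13 in TC22. The 4 that are not among the 10 were TSFM, AVIL, CTDSP2 and ATP23, with differences of 3.63 to 4.10 in TC640 and 2.16 to 3.34 in TC22. TSFM, a mitochondrial translation elongation factor, differed by 4.05 in TC640 and 3.34 in TC22, and CTDSP2, a phosphatase that acts on RNA polymerase, by 3.63 and 2.59. Upstream of the change, none of the 5 genes from PIP4K2C to B4GALNT1 was past the limit in either tumor. Their differences were -1.93 to -0.56 in TC640 and 0.33 to 1.05 in TC22.

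The stretch between ATP23 and MDM2 separated the tumors. From LRIG3 to NUP107, 20 of 26 genes were 4-fold above the median in TC640 and 3 of 26 in TC22, with median differences of 2.70 and 1.22. LRIG3, a membrane protein that modulates receptor tyrosine kinases, was the sharpest case, with a difference of 5.69 in TC640 and 1.17 in TC22. It also varied widely in the other 28 (SD 1.69), where the highest difference was 4.96 and 7 tumors lay above TC22. From USP15 to C10H12orf56 it was 6 of 7 genes in TC640 and 0 of 7 in TC22. Single genes of the stretch were not high in TC640, such as AVPR1A (-1.32). In TC640 the difference was 0.73 at WIF1 and 0.94 at LEMD3, and it returned to 3.11 at CAND1 and 3.25 at DYRK2. In TC22 it was -1.26 at WIF1, 1.75 at LEMD3, 1.10 at CAND1 and 1.45 at DYRK2.

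Around MDM2 both tumors were high again, and MDM2 itself was not the peak. NUP107, the gene before MDM2 among those ordered, differed by 3.13 in TC640 and 1.86 in TC22, and RAP1B, a small GTPase before it, by 3.63 and 2.71. From MDM2 to CNOT2, 7 of 9 genes were past the limit in TC640 and 5 of 9 in TC22. FRS2, an adaptor of fibroblast growth factor receptors, differed by 2.75 and 2.51, and YEATS4, a chromatin reader, by 2.38 and 2.29. RAB3IP was higher in TC22 (3.72) than in TC640 (2.36). Beyond CNOT2 the next gene, PTPRB, differed by -1.48 in TC640 and 1.63 in TC22, and from PTPRB to TBC1D15 none of 7 genes was past the limit in TC640 and 1 (RAB21, 2.47) in TC22.

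Elsewhere on chromosome 10, 2.58% of 426 genes were 4-fold above the median in TC640 and 4.69% in TC22, with median differences of -0.22 and 0.05. A smaller group far upstream stood out in TC640. RDH5 and CD63 differed by 3.75 and 3.50 there, against -0.44 and 0.28 in TC22, and the neighbouring ITGA7 by 1.86 and GDF11 by -1.10 in TC640. Others of that stretch were high in both tumors, RDH16 by 3.59 and 3.20 and MMP19 by 2.79 and 3.36. The 52 genes from ITGA7 to KIF5A had a median difference of -0.74 in TC640 and 0.07 in TC22.

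A running median over 5 neighbouring genes was computed for every tumor, on differences from the median of all the other tumors. The baseline of TC640 thus held TC22 here, and the reverse. Over all chromosomes, 12867 genes could be ordered and 925 runs with a running median of at least 2 were found in the 30 tumors. The run in TC640 that holds CDK4 and MDM2, from OS9 to PTPRR, spanned 48 genes, of which 36 were past the 4-fold limit, and it was the longest of the 925. TC22 had a run of 15 genes from SLC26A10 to SLC16A7 at CDK4 and a separate run of 9 genes from CPSF6 to PTPRB next to MDM2. The highest running median in the region was 4.14 in TC640 and 3.22 in TC22, and 0.21 to 2.27 (median 0.88) in the 28. TC538 held the 2.27, and TC538 also had 161 runs over the genome, more than any other tumor. By height the TC640 run ranked 88 of 925 and the TC22 run 195, and the 4 highest runs lay at the calcitonin genes in MTC.

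**Figure D3:**
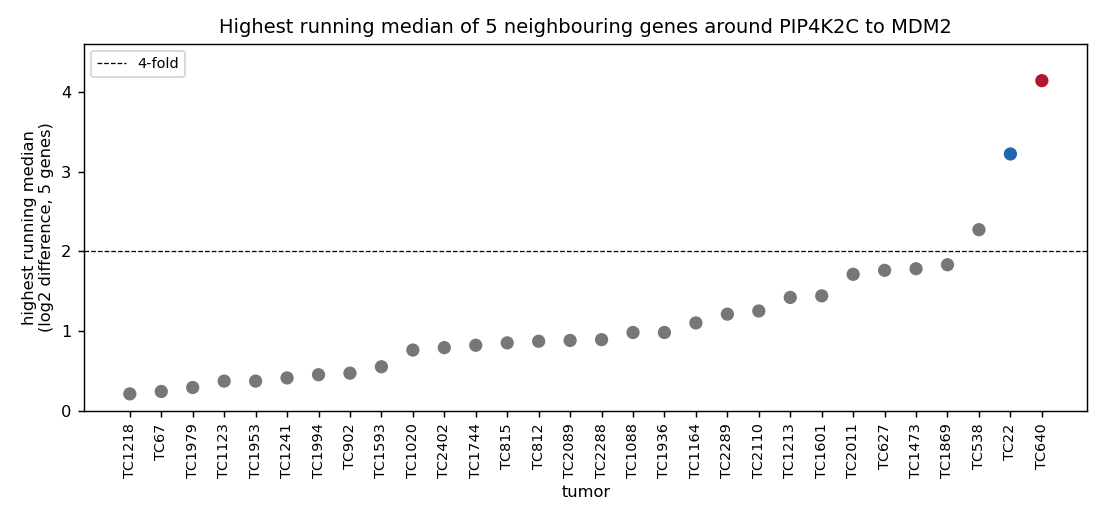
Highest running median over 5 neighbouring genes (y axis, log2 difference from the median of all the other tumors) around PIP4K2C to MDM2 in each tumor (x axis, ordered by value). The dashed line is 4-fold. TC640 (4.14) and TC22 (3.22) lie above the other tumors, of which only TC538 (2.27) passes the line.

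The levels of other genes were also compared with the mean of the 10, each scaled to unit variance, over all 30 tumors. Of the 10 genes outside the set with the highest Pearson's r, 7 lie on chromosome 10 and 3 could not be placed. TSFM came first (r = 0.87), then CTDSP2 (r = 0.81) and PPP6R2 (r = 0.80). CD63, ARSA and RASSF3 had r of 0.73, 0.71 and 0.70. The 3 without a symbol or a place were ENSCAFG00000008287, ENSCAFG00000020631 and ENSCAFG00000041598, and their differences in TC640 were 3.86, 4.40 and 4.34. Among the 10 themselves, MARCHF9 had the highest r with the mean (0.93) and MDM2 the lowest (0.34). TC640 and TC22, which chose the genes, enter these coefficients, which are a description.

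Whether the genes vary together where they are not high was asked in the 28 tumors that remain without TC640 and TC22. Spearman's rho with CDK4 was tested with 100000 permutations and adjusted by Benjamini-Hochberg over 18710 genes. Of the other 9 genes, 4 rose with CDK4 at an adjusted p below 0.05 and none fell, where 12.2% of all genes passed in the positive direction and 13.4% in the negative. All 4 (OS9, TSPAN31, MARCHF9 and METTL1) lie within a few genes of CDK4. So do AGAP2 (rho 0.33) and CYP27B1 (rho 0.28), which did not pass. Whether closeness bears on these calls was not tested.

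For MARCHF9 rho with CDK4 was 0.60 (p = 0.00104 by the permutation test over 28 tumors, adjusted p = 0.0101) and Pearson's r was 0.61 (p = 0.00049). For TSPAN31 rho was 0.58 (p = 0.00141 by the permutation test, adjusted p = 0.0122) and r was 0.61 (p = 0.00064). Both are direct neighbours of CDK4. For OS9 rho was 0.56 (p = 0.0021 by the permutation test, adjusted p = 0.0155) and r was 0.57 (p = 0.00126). For METTL1 rho was 0.52 (p = 0.00493 by the permutation test, adjusted p = 0.0262) and r was 0.51 (p = 0.00547). Without TC2011 and TC812, the tumors farthest from the CDK4 median, r was 0.59 for MARCHF9, 0.55 for TSPAN31, 0.49 for OS9 and 0.48 for METTL1. In those 26 tumors only MARCHF9 kept its call (rho 0.53, adjusted p = 0.047 by the permutation test), and the adjusted p of rho was 0.055 for TSPAN31, 0.0874 for OS9 and 0.0765 for METTL1.

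The 5 MTC bear on these calls. In the 23 tumors left without them, only OS9 stayed below an adjusted p of 0.05 (rho 0.69, adjusted p = 0.0142). TSPAN31 had a rho of 0.53 (permutation test, adjusted p = 0.0541), MARCHF9 0.52 (adjusted p = 0.0612) and METTL1 0.45 (adjusted p = 0.109), so the direction held and the call did not. PIP4K2C (rho 0.32, adjusted p = 0.214 by the permutation test in 28 tumors), AGAP2 (0.33, adjusted p = 0.191), CYP27B1 (0.28, adjusted p = 0.274) and B4GALNT1 (0.02, adjusted p = 0.962) did not pass. Of 23 genes in a list of neighbours of CDK4 in human order, 8 rose with CDK4 and none fell. TSFM was among them (rho 0.76, adjusted p = 0.00207 by the permutation test). Without the 5 MTC 9 rose and none fell, where 1531 of all 18710 genes rose and 1700 fell.

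CDK4 and MDM2 did not rise together in the 28 tumors. Their rho was -0.38 (permutation test, p = 0.0488, adjusted p = 0.128, n = 28) and r was -0.40 (p = 0.0333), which did not pass after adjustment. Without TC2011 and TC812, r was -0.32, and without the 5 MTC rho was -0.45 (permutation test, adjusted p = 0.113). TC640 and TC22 held the 2 highest levels of both genes.

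**Figure D4:**
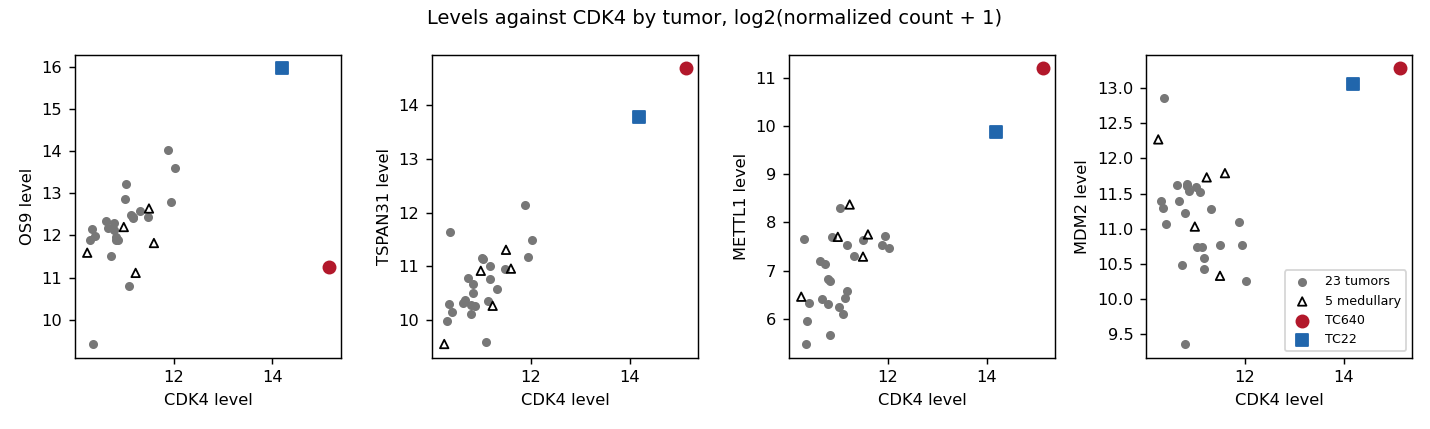
Level of OS9, TSPAN31, METTL1 and MDM2 (y axes) against CDK4 (x axes), all as log2(normalized count + 1), 1 point per tumor. Filled grey points are 23 tumors, open triangles the 5 MTC, and the large symbols TC640 (circle) and TC22 (square). OS9, TSPAN31 and METTL1 are higher where CDK4 is higher among the 28 small symbols, MDM2 tends the other way (rho -0.38), and OS9 in TC640 (11.26) is not high.

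With MDM2 as the reference, none of the other 9 genes rose and 1 fell at an adjusted p below 0.05, where 17.3% of all genes rose and 16.2% fell. OS9 was the one that fell (rho -0.57, permutation test, p = 0.00176, adjusted p = 0.00929, n = 28, and r -0.57, p = 0.00254). Without the 5 MTC its rho was -0.43 (permutation test, adjusted p = 0.1), and without TC1979 and TC538, the tumors farthest from the MDM2 median, r was -0.50. Without those 2, TSPAN31 also passed in the same direction (rho -0.52, adjusted p = 0.0356 by the permutation test). Of 36 genes in a list of neighbours of MDM2 in human order, 20 rose with MDM2 and 1 fell, while 1 rose and 12 fell with CDK4. Without the 5 MTC, 20 rose with MDM2 and none fell, and 1 rose and 9 fell with CDK4. Of all 18710 genes, 3116 then rose and 2876 fell with MDM2, and 1531 rose and 1700 fell with CDK4. CAND1, an assembly factor of cullin ubiquitin ligases, had the highest rho with MDM2 of all genes with a symbol (0.91, permutation test, adjusted p = 0.000363), and NUP107 and RAP1B reached 0.84 and 0.79.

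The paralogs of CDK4 and MDM2 are encoded elsewhere in the genome and were looked at beside them. CDK6, which shares D-type cyclins with CDK4, had a level of 5.37 in TC640, the lowest of the 30 tumors, and 7.78 in TC22, against 5.70 to 9.93 (median 7.23) in the 28. MDM4, which forms a complex with MDM2, had levels of 10.55 and 9.60, inside the range of the 28 (8.73 to 11.72). Over the 28 tumors MDM4 rose with MDM2 (rho 0.67, permutation test, adjusted p = 0.00203) and r was 0.73. With CDK4 its rho was -0.52 (permutation test, adjusted p = 0.0263), a call that was lost without the 5 MTC (rho -0.50, adjusted p = 0.0716).

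Genes of the CDK4 pathway were taken from lists chosen with earlier results known and are given by count, beside a median difference over all 18711 genes of -0.01 in TC640 and 0.01 in TC22. In the list of D-type cyclins, CDK inhibitors, RB proteins and E2F factors, 1 of 12 genes was past the limit in TC640 and none in TC22. That gene was CDKN2C, which encodes an inhibitor that binds CDK4 and CDK6. Its level was 10.39 in TC640 and 9.87 in TC22, above all of the other 28 (5.12 to 9.21, median 7.98). CCND3, a D-type cyclin, differed by 1.46 and 1.14, and CCND1 by 0.93 and 0.44, both within the range of the 28. E2F3 differed by -1.39 and -0.52, and RB1 by -0.01 and 0.12.

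Of 15 replication and proliferation genes that E2F drives, none was past the limit in either tumor. The median difference was -0.49 in TC640 and -0.27 in TC22, and 13 of the 15 had a negative difference in each. Of all genes, 49.3% had a positive difference in TC640 and 50.2% in TC22. MCM3 differed by -1.79 and -0.59, RRM2 by -0.86 and -0.30, and MKI67, a marker of cycling cells, by -0.09 and -0.06. MCM4 was lower in TC640 than in any other tumor (level 8.35, against 8.40 to 10.79). Over the 28 tumors, 4 of the 15 rose with CDK4 and none fell, beside the 12.2% of all genes that rose. Without the 5 MTC 3 rose (MCM5 and TYMS of the 4, and MCM3), beside 1531 of all 18710 genes.

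**Figure D5:**
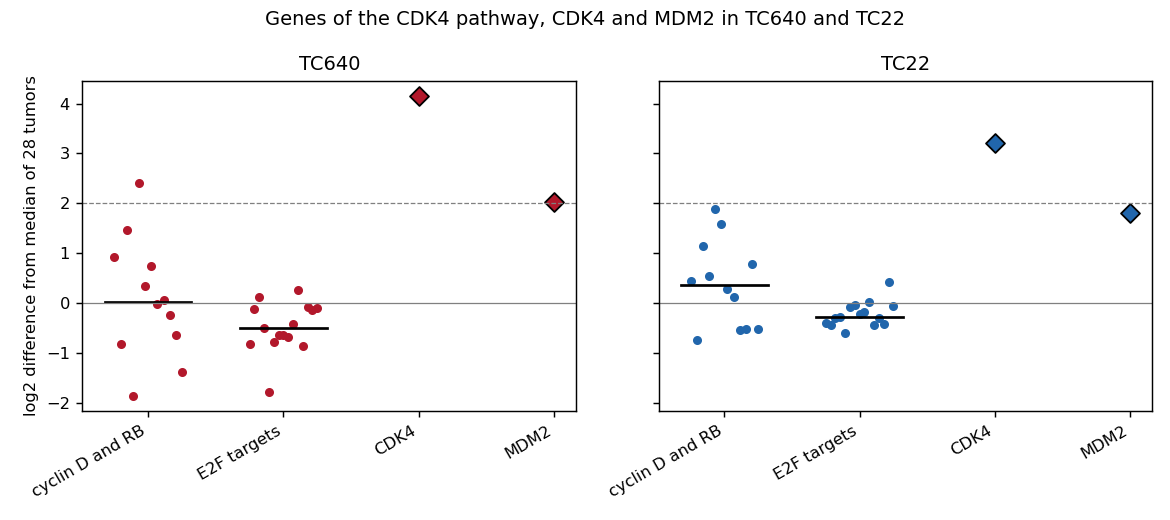
Difference from the median of the other 28 tumors (y axis, log2) of single genes in 2 lists (x axis, small points, black bars at the list median) and of CDK4 and MDM2 (diamonds), in TC640 (left) and TC22 (right). The dashed line is 4-fold. CDKN2C in TC640 (2.41) is the only list gene past it, and the list medians lie between -0.49 and 0.36.

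Markers of other cell types also differed in these tumors. In TC640, 4 of 5 fibroblast markers were 4-fold below the median, DCN had no count, and their summed level was 12.25 (11.12 to 18.28 in the 28). In TC22 the 5 endothelial markers were all above their medians, and their summed level was 14.58 (11.23 to 14.81 in the 28). Of 5 C-cell markers, 4 were 4-fold above the median in TC22, with differences of 5.98 for CALCA, 7.44 for CALCB and 5.73 for SCG2, and 1 in TC640. Their summed level was 13.10 in TC22, rank 6 of the 30 tumors, and 7.16 in TC640 (5.89 to 19.43 in the 28). Gene by gene, 4 of the 28 lay above TC22 for CALCA and for CALCB, 5 for SCG2, 7 for SCG3 and 8 for SYT1. The study describes TC22 as compact in growth pattern, as it does most of its medullary tumors. Summed levels of 4 adipocyte markers (8.01 and 6.92, against 4.71 to 9.60), 4 leukocyte markers (10.82 and 11.56, against 10.12 to 12.60), 5 skeletal muscle markers (10.53 and 10.59, against 8.92 to 13.00) and 2 parathyroid markers (2.95 and 6.81, against 2.42 to 15.48) lay within the range of the 28. The part of these cells in the levels of the 10 genes was not tested.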

How the data were processed

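Total RNA of 30 primary canine TC was made into ribosome-depleted libraries (Zymo-Seq RiboFree) and sequenced as paired-end reads. The authors aligned them to CanFam3.1 (Ensembl release 99) with STAR 2.6.1a and deposited raw read counts per gene and tumor. The strand setting is not given in the sources used here. The table held 30424 genes, 15780 with a symbol. Reads carry no molecular identifiers, and no 2 tumors had identical counts.

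From these counts, levels were computed with median-of-ratios size factors and a pseudocount of 1. Genes needed at least 10 counts in at least 5 tumors. The 10 genes, the pair TC640 and TC22 and all lists were chosen with earlier results of these data known. Tests were two-sided permutation tests of correlation over 28 tumors with Benjamini-Hochberg adjustment at 0.05, and were tested on simulated data. A p-value is the share of permutations over these tumors that gave a correlation at least as strong. Since the labels do not say more, each tumor was taken as 1 unit.

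Named genes are the 10 genes, up to 6 per list with the largest differences in TC640 or TC22, the 10 genes most like the mean of the set, genes at the edges of runs, CDK6 and MDM4. Results of some genes are not reported here. Further neighbours and partners named were chosen after their values were seen. Alternatives were TMM (edgeR 4.0.16 in R 4.3.3), CPM, a pseudocount of 8, other limits and filters, Pearson's r, and leaving out TC1088 and TC538, the 5 MTC or the 2 farthest tumors. Python 3.11.15, numpy 2.4.6, pandas 2.3.3 and matplotlib 3.10.9 were used.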

Additional observations from a re-analysis of the deposited data

How the results depend on the processing

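The number of the 10 genes 4-fold above the median stayed within 5 to 7 in TC640 and 5 to 8 in TC22 under every alternative run, fold limits of 2 and 8 included. The number of all genes past the 4-fold limit was 663 in TC640 and 644 in TC22, of 18711 genes. A filter of 10 or more counts in 15 or more tumors left 16175 genes, with 439 and 436 past the limit. The differences of the 10 genes moved by less than 1 SD of the 28 tumors in 100 of 100 recomputed values. That SD is the spread between tumors (0.49 to 2.13), a wide limit that these alternatives could hardly exceed. CYP27B1 in TC640, for example, went from 4.91 to 4.22 with a pseudocount of 8. TMM moved the median of all genes in TC22 from 0.01 to 0.14, and CDK4 there from 3.20 to 3.34. Genes of the set correlated with CDK4 numbered 4, but 1 without the 5 MTC (OS9) and 1 without the 2 farthest tumors (MARCHF9). With MDM2 the number was 1, but 0 without the 5 MTC, 2 without the 2 farthest tumors and 3 with Pearson's r (OS9, AGAP2 and MARCHF9). The cause was not tested. Of 72 single correlations recomputed, 61 kept their direction and their side of an adjusted p of 0.05. The 3 that changed sign were not called in any of these fits, PIP4K2C with MDM2 (-0.17, and 0.11 without the 5 MTC) and B4GALNT1 with MDM2 (-0.02, 0.03 without TC1088 and TC538, and 0.24 without the 5 MTC). No paired analysis was possible because all tumors form 1 group. CYP27B1, with a median of 10.5 counts in the 28, is the least precise value.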

Other observations

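Other runs of neighbouring genes with a high running median were found in TC640 and TC22. Both had runs at the HOXA genes on chromosome 14, with a highest running median of 4.96 in TC640 and 6.08 in TC22, and 5 of the other 28 tumors had a run there too. At the HOXB genes on chromosome 9 the values were 4.59 and 5.14, with a run in 8 of the other 28, among them the 5 MTC. TC22 also had a run at the calcitonin genes on chromosome 21 (6.00), as did 7 of the other 28, while TC640 did not. TC640 had 11 runs and TC22 had 12.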
